A study of Mus musculus with 6 samples.

Results

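SOX proteins are transcription factors that share a DNA-binding domain, the HMG box, and 10 mouse genes of this family are described here in the cochlea and the vestibule of the newborn inner ear: Sox1, Sox2, Sox4, Sox5, Sox6, Sox8, Sox9, Sox10, Sox11 and Sox21. The genes were listed by symbol and matched to their Ensembl identifiers. They are 10 of the 20 SOX genes and of the 39179 genes in the files. Sox1 was chosen by its counts in these same libraries, which are trace in the cochlea and high in the vestibule, so its values are given as a description with no test. The other 9 genes were tested with all genes.

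The samples were sensory epithelia of wild-type C57Bl/6J mice on the day of birth (P0), males and females pooled, with no treatment and no engineered allele. The cochlea is the hearing organ and the vestibule the balance organ, and the tissue taken is the sheet of hair cells and supporting cells with whatever adhered to it in dissection. Each tissue was pooled from 20 inner ears of 10 mice and gave 3 RNA-seq libraries. No source says that the 3 libraries of a tissue came from separate RNA pools, so p-values measure the spread between these libraries, which may be technical. A change in bulk tissue can be fewer cells of a type or less RNA per cell, and these cannot be told apart.

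The HMG box bends DNA by binding in the minor groove, and SOX proteins usually act with partner factors. By similarity of the box they fall into subgroups. Sox1, Sox2 and Sox3 form group B1, the genes of neural and sensory progenitors, and Sox21 belongs to group B2, whose proteins often repress. Sox4, Sox11 and Sox12 form group C, known from progenitors and young neurons. Sox5, Sox6 and Sox13 form group D, which lacks an activation domain of its own. Sox8, Sox9 and Sox10 form group E, known from cartilage, neural crest, glia and the otic vesicle. In the inner ear SOX2 is required for the prosensory domain, from which hair cells and supporting cells arise. SOX9 and SOX10 act early in the otic epithelium, and SOX10 is also the factor of Schwann cells and melanocytes.

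The start of the region that encodes the HMG box is shown for the 10 genes, since it is the part they share and the part in which their reads could be confused. The sequences are from the GENCODE vM21 transcripts on GRCm38, the build of the deposited counts, written 5′ to 3′ on the coding strand. Each is 60 bases of coding sequence within 1 exon, with capitals at the bases that differ from Sox2.
Sox1 (chr8:12396517-12396576, plus strand): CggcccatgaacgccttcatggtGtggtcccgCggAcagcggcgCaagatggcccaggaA
Sox2 (chr3:34650548-34650607, plus strand): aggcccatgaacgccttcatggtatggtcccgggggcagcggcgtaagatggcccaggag
Sox21 (chr14:118235549-118235608, minus strand): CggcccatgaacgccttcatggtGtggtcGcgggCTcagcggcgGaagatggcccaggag
Sox4 (chr13:28952782-28952841, minus strand): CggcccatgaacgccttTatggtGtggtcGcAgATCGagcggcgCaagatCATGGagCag
Sox11 (chr12:27342199-27342258, minus strand): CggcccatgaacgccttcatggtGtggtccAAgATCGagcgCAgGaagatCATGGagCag
Sox5 (chr6:143841214-143841273, minus strand): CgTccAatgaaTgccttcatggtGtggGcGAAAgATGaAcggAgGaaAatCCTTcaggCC
Sox6 (chr7:115489703-115489762, minus strand): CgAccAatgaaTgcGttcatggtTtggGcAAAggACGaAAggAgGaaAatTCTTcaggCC
Sox8 (chr17:25570163-25570222, minus strand): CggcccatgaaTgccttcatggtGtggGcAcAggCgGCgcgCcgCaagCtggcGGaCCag
Sox9 (chr11:112782903-112782962, plus strand): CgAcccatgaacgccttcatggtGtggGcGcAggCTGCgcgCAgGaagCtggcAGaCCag
Sox10 (chr15:79163342-79163401, minus strand): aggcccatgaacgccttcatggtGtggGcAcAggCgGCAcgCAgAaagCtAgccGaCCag
Sox1 and Sox21 each differ from Sox2 at 6 of these 60 bases, the members of groups C and E at 16 to 18, and Sox5 and Sox6 at 23 and 24. Over the 237 bases of the box, genes of the same subgroup (B1 and B2 counted as 1 subgroup) were 80.6% to 89.0% identical, and genes of different subgroups 50.2% to 70.9%. The encoded 79 residues were 89.9% to 97.5% identical within subgroups and 43.0% to 65.8% between them. The longest run of identical coding sequence between any 2 of the 10 genes was 48 bases, between Sox4 and Sox11. For Sox1 and Sox2 it was 38 bases. The sequenced reads were 100 bases long, so no single read fits both members of a pair without a mismatch within coding sequence.

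The libraries held between 24464483 and 33664793 counts on genes. A count of 1 CPM (counts scaled to the library's total on genes) stood for 24.5 to 33.7 counts, and 3 counts, the floor used here, for 0.0891 to 0.123 CPM. The test covered the 14723 genes that reached 1 CPM in 3 libraries or more. All 10 members passed, Sox1 through its vestibular libraries alone. Defining markers of hair cells and supporting cells were above 0 in every library. The third cochlear library stood apart in its neuron markers, which summed to 229 CPM against 617 and 720 CPM in the other 2. Without it the neuron markers higher in the cochlea numbered 9 rather than 6.

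Of the 9 members tested, 5 were higher in the cochlea (Sox2, Sox5, Sox9, Sox11 and Sox21), 1 was higher in the vestibule (Sox8), and 3 did not pass (Sox4, Sox6 and Sox10). The test was edgeR's quasi-likelihood test on the counts after TMM scaling, with Benjamini-Hochberg adjustment over all genes and an FDR of 0.05. Of all genes tested, 27.4% passed, 11.6% higher in the cochlea and 15.8% higher in the vestibule. The members' median log2 fold change, given throughout as vestibule minus cochlea, was -0.60, against 0.005 over all genes. The libraries of the tissues did not overlap in CPM in 7 of these 9 members, against 41.8% of all genes. This was so in 5 members higher in the cochlea, where 14.3% of all genes do so, and in 2 higher in the vestibule, Sox8 and Sox10, where 27.5% do. These counts are read as a description of a chosen list. With 1 library left out, 4 to 5 members were higher in the cochlea and 0 to 1 in the vestibule, the latter being 0 without cochlear library 1 or 2 or vestibular library 2.

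**Figure D1:**
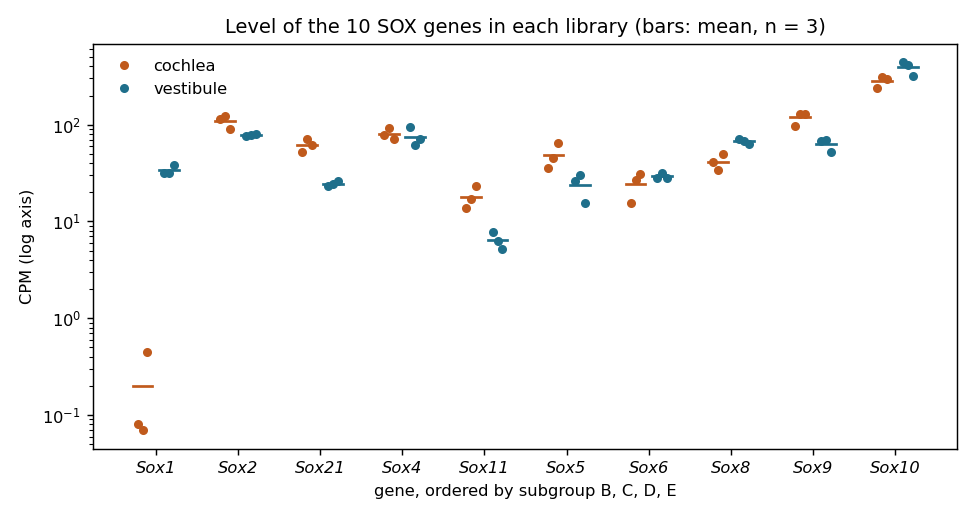
Level of each SOX gene in CPM (log axis) in the 3 cochlear and 3 vestibular libraries, with points for libraries and bars for the mean of 3. Sox1 is the only gene of the 10 with a mean under 1 CPM in a tissue, and Sox2, Sox5, Sox9, Sox11 and Sox21 lie lower in every vestibular than in every cochlear library.

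Sox1, a gene of neural progenitors and the lens, was at trace level in the cochlea and well detected in the vestibule. Its counts were 2, 2 and 13 in the cochlear libraries and 1069, 812 and 973 in the vestibular libraries. In CPM these were 0.0818, 0.0694 and 0.445 against 31.8, 31.6 and 38.2. Every vestibular library was above every cochlear one, and the first 2 cochlear libraries were under the floor of 3 counts. Summed over libraries, 17 cochlear and 2854 vestibular counts gave a ratio of 163, with an exact 95% interval of 102 to 281 that covers counting error only. The third cochlear library held 13 of the 17 counts, and without it the ratio was 448 (175 to 1646). The smallest ratio of any vestibular to any cochlear library was 71.1. Sox1 (ENSMUSG00000096014) lies on chr8:12395295-12400126, plus strand, as 1 exon. The microRNA gene Gm25239 lies within it and had 0 counts in every library.

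A second transcript of the same locus had a like pattern. Sox1ot is a non-coding transcript on the same strand, chr8:12385771-12436768, which spans Sox1 and shares 0 exon bases with it. It was chosen because it overlaps a member. It had 4, 11 and 5 cochlear counts and 477, 347 and 237 vestibular counts, with no overlap. The ratio of the summed CPM was 51.6 (33.2 to 84.8, counting error only). In the vestibular libraries the Sox1ot counts were 44.6%, 42.7% and 24.4% of those of Sox1.

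The 5 tested genes whose libraries followed Sox1 most closely were Tmem215, Pyy, Grem1, Nox3 and Dlx6. Likeness was measured, after centring each gene's log2 CPM over the 6 libraries, as the root mean square of the differences from Sox1, which was 0.441, 0.452, 0.471, 0.536 and 0.543 in that order. Grem1 encodes a BMP antagonist and Nox3 an oxidase needed for the otoconia of the vestibule. Nox3 had 4, 9 and 31 cochlear counts and 2332, 1047 and 1269 vestibular counts. Grem1 had 9, 8 and 37 against 4020, 2209 and 1423. Among the cochlear libraries, the third held the most counts of Sox1 and of each of these 5 genes, with 21 counts of Tmem215, 1 of Pyy and 7 of Dlx6, which the choice of genes by likeness to Sox1 favors. Sox1ot, not chosen that way, was highest in the second.

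**Figure D2:**
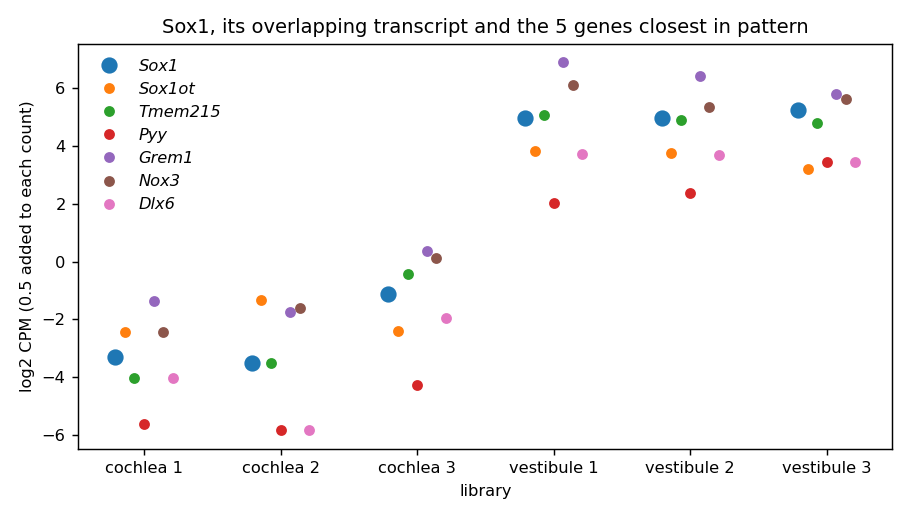
Log2 CPM, with 0.5 added to each count, of Sox1, Sox1ot and the 5 genes closest to Sox1 in pattern, in each of the 6 libraries. All 7 genes are above 2 on this scale in each vestibular library and under 0.5 in each cochlear one, and Sox1 is at -3.29, -3.53 and -1.11 in the cochlea.

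Sox2, the prosensory factor, was lower in the vestibule by a moderate amount. It measured 115, 122 and 89.9 CPM in the cochlea and 76.6, 78.8 and 79.7 CPM in the vestibule. The vestibular libraries were close together and under all cochlear ones. The log2 fold change was -0.60 (SE 0.16, edgeR adjusted p = 0.0215). The call was lost without cochlear library 1 or 2 or vestibular library 1 or 2, with adjusted p between 0.0626 and 0.098 in edgeR, while the direction stayed.

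Sox21, the group B2 relative expressed in the sensory epithelium with Sox2, fell further. It measured 51.7, 71.3 and 62.0 CPM in the cochlea and 23.1, 24.6 and 25.9 CPM in the vestibule. The groups were separated by a wide gap. The log2 fold change was -1.45 (SE 0.17, edgeR adjusted p = 0.000329), the smallest p among the 9 members tested. A non-coding gene on the opposite strand, Gm4675, overlaps 18.8% of the Sox21 exon bases. It was low, with 39, 67 and 48 cochlear and 29, 23 and 20 vestibular counts, against 631 to 2054 counts of Sox21. Gm4675 was higher in the cochlea, like Sox21 (log2 fold change -1.26, SE 0.28, edgeR adjusted p = 0.00959). The strand setting of the authors' counting is not given in the sources used here, so reads of the overlap cannot be told apart by strand.

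The genes that act with SOX2 in the prosensory domain were read beside it. Of 14 tested, 11 were higher in the cochlea, 0 in the vestibule, and 3 did not pass, with a median log2 fold change of -0.91. In all 78.6% of the list passed, against 27.4% of all genes. Over all genes 11.6% were higher in the cochlea and 15.8% in the vestibule. The count of 11 was 8 to 11 with 1 library left out. The largest changes were in Gata3, a factor of the cochlear sensory lineage (163 CPM in the cochlea and 10.7 CPM in the vestibule, log2 fold change -4.06), the Notch target Hes5 (4.86 and 0.490 CPM, -3.43) and the growth factor Fgf20 (2.21 and 0.554 CPM, -2.09). Summed, the list took 1482 to 1962 CPM in the cochlear libraries and 911 to 1062 CPM in the vestibular ones.

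Markers of the cells that express Sox2 moved in both directions. Of 8 supporting cell markers, 5 were higher in the cochlea and 1, Slc1a3, in the vestibule. Slc1a3, named after its values were seen, lost its call without cochlear library 2 or vestibular library 1 or 2. Epyc, Fgfr3 and Tectb changed most (log2 fold changes -6.36, -4.29 and -2.81), and the list summed to 4312 to 5145 CPM against 1261 to 1291 CPM. Of 12 hair cell markers, 6 were higher in the vestibule and 1 in the cochlea, or 2 without cochlear library 1. In this list 58.3% passed. With 1 library left out the vestibular count was 4 to 7. Pvalb, a calcium buffer also found in neurons, had the largest change (-2.39), followed by Gfi1 (2.19) and Otof (2.08). Pvalb was the marker higher in the cochlea, and its cochlear values of 88.9, 72.6 and 30.4 CPM had the order of the summed neuron markers, whose part in them was not tested. The hair cell list summed to 695 to 883 CPM in the cochlea and 1091 to 1401 CPM in the vestibule. The part of the cell types in the Sox2 and Sox21 values was not tested.

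Group C divided. Sox11 was lower in the vestibule, at 13.7, 17.0 and 23.3 CPM in the cochlea and 7.87, 6.23 and 5.14 CPM in the vestibule, with no overlap. Its log2 fold change of -1.61 was the largest among the 9 members tested (SE 0.23, edgeR adjusted p = 0.0011). Sox4, its close paralog, measured 78.0, 92.8 and 71.6 CPM in the cochlea and 93.8, 61.9 and 70.5 CPM in the vestibule. The Sox4 groups overlapped, with the highest and the lowest library both vestibular, and the log2 fold change was -0.23 (SE 0.18, adjusted p = 0.388). A non-coding gene on the opposite strand, Gm26735, covers 54.6% of the Sox4 exon bases and had 0 counts in every library. Sox12, the third gene of the group and no member of the list, was 120, 129 and 142 CPM against 92.8, 104 and 81.6 CPM (log2 fold change -0.61, SE 0.13, adjusted p = 0.00816).

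Group C genes are known from neurons, and neuron markers also differed. Of 11 tested, 6 were higher in the cochlea, 0 in the vestibule, and 5 did not pass. In all 54.5% passed, against 27.4% of all genes. Dcx, Tubb3 and Elavl4 changed most, with log2 fold changes of -3.04, -2.54 and -2.53. With 1 library left out the count of 6 ranged from 2 to 9, being 2 without cochlear library 1 or 2, 3 without vestibular library 3, 8 without vestibular library 1 and 9 without cochlear library 3. The summed neuron markers overlapped between tissues, at 229 to 720 CPM in the cochlea and 125 to 366 CPM in the vestibule. Within the cochlea, Sox11 was highest in the third library, where the neuron markers were lowest, and within the vestibule it was highest in the first library, where they were highest. The part of neurons in the Sox11 values was not tested.

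Sox5 and Sox6, which act together with SOX9 in cartilage, did not change alike. Sox5 measured 36.0, 44.8 and 64.3 CPM in the cochlea and 26.4, 30.3 and 15.4 CPM in the vestibule. It was lower in each vestibular library, with a log2 fold change of -1.14 (SE 0.27, edgeR adjusted p = 0.0133). Sox6 measured 15.3, 26.9 and 30.6 CPM in the cochlea and 28.3, 31.9 and 27.8 CPM in the vestibule. The groups overlapped, with only the first cochlear library well under the rest (log2 fold change 0.15, SE 0.24, adjusted p = 0.689). Without cochlear library 1 the Sox6 value was -0.11.

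Both genes are long, and Sox5 spread widely between libraries of a tissue, with a coefficient of variation of 30.0% in the cochlear and 32.1% in the vestibular libraries. For Sox6 it was 32.9% in the cochlear and 7.69% in the vestibular libraries. The gene length behind the deposited matrix was 14.3 kb for Sox5, above 98.5% of the genes compared, and 8.83 kb for Sox6. Libraries differed in their reading of long genes. The longest quartile of genes minus the shortest, in log2 deviations from the gene's tissue mean, was -0.16, -0.07 and 0.24 in the cochlear and 0.29, 0.001 and -0.28 in the vestibular libraries, against 0.07 between tissues (13723 genes with a mean of at least 50 counts). This measure was added after the data were seen. In the cochlea its order is that of the Sox5 and Sox6 values, and in the vestibule it is not, since both genes were highest in library 2. Its part in them was not tested.

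Within group E, Sox9 was higher in the cochlea, Sox8 was higher in the vestibule and Sox10 did not pass the test. Sox9, the cartilage factor that also acts in the otic epithelium, measured 96.9, 129 and 130 CPM in the cochlea and 67.3, 70.2 and 51.8 CPM in the vestibule. Every vestibular library was lower, and the log2 fold change was -1.04 (SE 0.17, edgeR adjusted p = 0.00189). Sox8 measured 41.2, 33.6 and 49.4 CPM in the cochlea and 70.9, 68.3 and 62.9 CPM in the vestibule. Every vestibular library was higher, and the log2 fold change was 0.59 (SE 0.14, adjusted p = 0.0155). The Sox8 call was lost without cochlear library 1 or 2 or vestibular library 2, with adjusted p between 0.0526 and 0.062.

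Sox10, the factor of Schwann cells and melanocytes, did not pass the test. It measured 242, 308 and 295 CPM in the cochlea and 440, 409 and 320 CPM in the vestibule. The groups did not overlap, by a small gap between 308 and 320 CPM, but the edgeR call was not made (log2 fold change 0.34, SE 0.16, adjusted p = 0.148). Over the alternative analyses the adjusted p ranged from 0.0606 to 0.405.

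Transcripts annotated within Sox5 and Sox6 were rare, with at most 3 counts in a library for the Sox5 antisense and intronic transcripts analysed and 5 to 14 counts for Sox6os.

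The annotation puts an antisense gene at the start of Sox8. 2810468N07Rik lies on the opposite strand and shares 329 bases, 10.6%, of the Sox8 exons. It had 147, 168 and 221 cochlear counts and 715, 589 and 524 vestibular counts, higher in every vestibular library (log2 fold change 1.62, SE 0.16, edgeR adjusted p = 0.000143). Sox8 itself had 968 to 1444 and 1603 to 2386 counts. Without the strand setting, how many reads of either gene belong to the other cannot be told apart.

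Cartilage genes that work with group E and D factors were read beside them. Of 13 cartilage genes tested, 1 was higher in the cochlea (2 without cochlear library 1), 4 in the vestibule, and 8 did not pass (median log2 fold change 0.26). In all 38.5% of the list passed, against 27.4% of all genes. Matn1, a matrix protein of cartilage, was 145 CPM in the cochlea and 6.48 CPM in the vestibule (-4.60). Acan, the large proteoglycan, was 2.85 and 36.1 CPM (3.52), and Comp was 0.570 and 2.71 CPM (2.1). The summed list overlapped between tissues, at 15840 to 26970 CPM and 19320 to 25960 CPM. Of these sums Col2a1, named after its values were seen, took 7736 to 14900 CPM in the cochlea and 9189 to 12080 CPM in the vestibule.

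Schwann cell genes, several of them known targets of SOX10, were read beside it. Of 13 tested, 6 were higher in the vestibule, 1 in the cochlea, and 6 did not pass (median log2 fold change 0.72). In all 53.8% passed, against 27.4% of all genes. Mag, a myelin protein, and the factor Pou3f1 were among those higher in the vestibule, with log2 fold changes of 2.56 and 1.62. Of 9 melanocyte genes, 7 were higher in the vestibule and 0 in the cochlea (median 2.08), so 77.8% passed. The count of 7 was 5 to 7 with 1 library left out. The pigment genes Tyrp1 (0.567 CPM in the cochlea and 41.9 CPM in the vestibule, 6.07), Mlana (0.474 and 16.4 CPM, 4.99) and Pmel (18.3 and 110.0 CPM, 2.47) led.

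The Schwann cell genes summed to 944, 630 and 625 CPM in the cochlear libraries and 1333, 1160 and 1657 CPM in the vestibular ones. The melanocyte genes summed to 394, 301 and 193 CPM against 554, 492 and 607 CPM. Ednrb, a receptor that did not pass the test and is named after its values were seen, took 289, 196 and 114.5 CPM of the cochlear melanocyte sums. In each tissue the library with the highest Schwann cell sum, cochlear library 1 and vestibular library 3, was the one with the lowest Sox10. The share of Sox10 reads from each cell type was not tested.

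**Figure D3:**
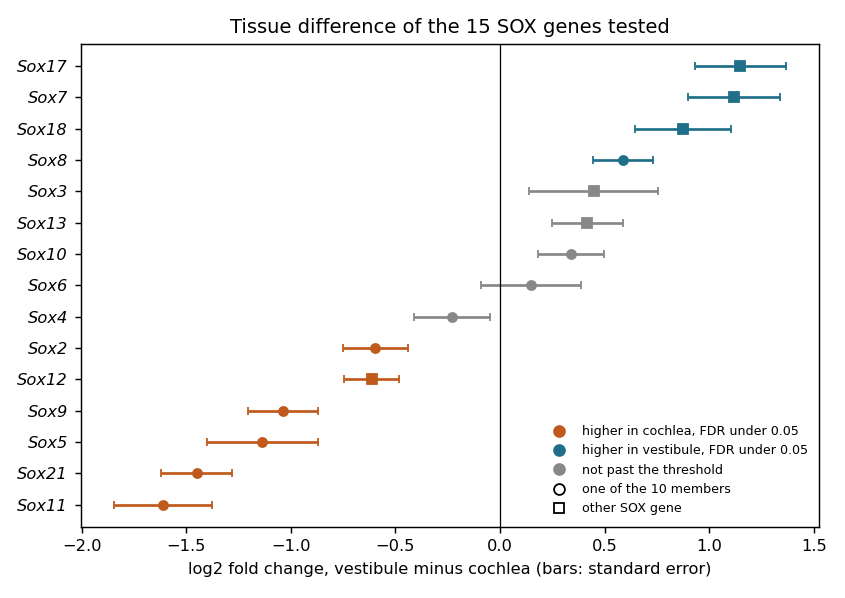
Log2 fold change of the 15 SOX genes tested, vestibule minus cochlea, with bars for the standard error, circles for the 9 members tested and squares for the other 6 genes, Sox1 being left out. Sox11 lies farthest toward the cochlea at -1.61, and Sox17 farthest toward the vestibule at 1.15.

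Ratios of related genes within a library do not depend on library scaling. The Sox4 to Sox11 ratio of counts was 5.71, 5.47 and 3.07 in the cochlear libraries and 11.9, 9.93 and 13.7 in the vestibular ones. The Sox2 to Sox21 ratio was 2.23, 1.71 and 1.45 against 3.31, 3.21 and 3.08. In both pairs the ratio was higher in every vestibular library.

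The Sox5 to Sox6 ratio went the other way, at 2.35, 1.66 and 2.1 in the cochlear libraries against 0.933, 0.95 and 0.554 in the vestibular ones. Sox5 took more counts than Sox6 in each cochlear library and fewer in each vestibular one, with no scaling by length. The Sox9 to Sox10 ratio was 0.400, 0.420 and 0.440 against 0.153, 0.171 and 0.162. The Sox8 to Sox9 ratio was 0.425, 0.260 and 0.380 against 1.05, 0.973 and 1.21. The Sox8 to Sox10 ratio overlapped, at 0.170, 0.109 and 0.168 against 0.161, 0.167 and 0.197.

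With 3 libraries against 3, an exact two-sided permutation test cannot give a p under 0.1. The first 5 of these 6 ratios had p = 0.1, the smallest possible (0.12 after Benjamini-Hochberg adjustment over 6 ratios, exact permutation test), and the Sox8 to Sox10 ratio had p = 0.6 by the same exact test. The fold between the geometric means was 1.81 for Sox2 to Sox21, 2.57 for Sox4 to Sox11, 2.56 for Sox5 to Sox6, 2.59 for Sox9 to Sox10 and 3.10 for Sox8 to Sox9. The Sox1 to Sox2 ratio, described with no test, was 0.000710, 0.000570 and 0.00495 in the cochlear libraries and 0.414, 0.401 and 0.479 in the vestibular ones.

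**Figure D4:**
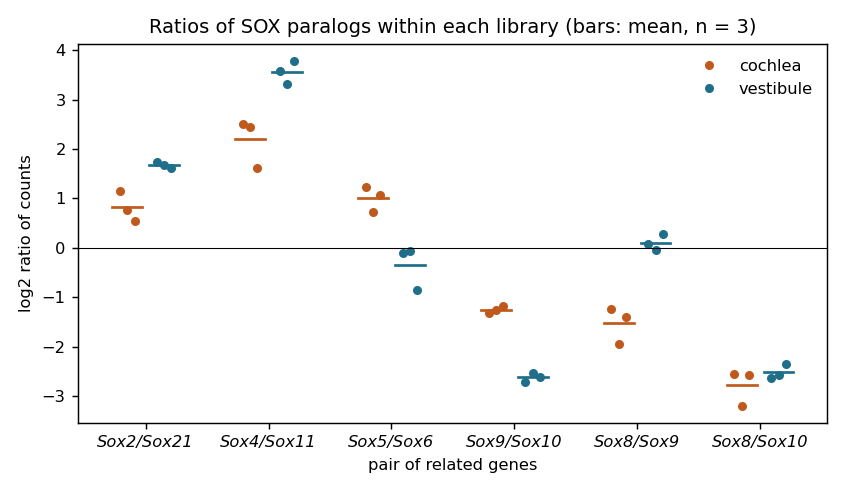
Log2 ratio of the counts of 2 related SOX genes within each library, with points for the 3 libraries of a tissue and bars for their mean. The tissues are separated in 5 of the 6 pairs and overlap in Sox8/Sox10.

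Levels of different genes were compared per length, on the log2 RPKM scale of the deposited matrix, which holds 16 of the 20 SOX genes. Sox10 ranked 1 and Sox2 ranked 2 among them in each of the 6 libraries. The mean of Sox10 was 6.69 in cochlear and 7.16 in vestibular libraries, and Sox2 lay between 5.20 and 5.63 in the cochlear libraries and between 4.97 and 5.02 in the vestibular ones. Sox10 made up 34.0% to 36.5% of the summed RPKM of the 16 genes in the cochlear libraries and 43.5% to 48.1% in the vestibular ones. This share moves with the other 15 genes too.

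Below these genes the order differed between tissues. In the cochlea, Sox12 (4.87) and Sox9 (4.83) came next and overlapped, and Sox13, Sox4, Sox21, Sox8 and Sox11 followed in that order from 4.19 to 3.13, each overlapping its neighbor. Sox5, Sox18 and Sox6 formed a lower set from 1.71 to 1.40, and Sox17, Sox7 and Sox3 were lower still. Sox1 ranked 16 in each cochlear library, at a mean of -5.03. In the vestibule Sox13, Sox8, Sox12, Sox4 and Sox9 ran from 4.74 to 3.92, each overlapping its neighbor. Sox1 (2.81), Sox21 (2.69) and Sox18 (2.67) overlapped and stood apart from the genes above and below. Sox6 and Sox11 came at 1.73 and 1.66, and Sox5 at 0.69. The level of Sox11 depends on the gene model, since the length behind the matrix was 2.01 kb, shorter than the annotated span of the gene, chr12:27334264-27342574.

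**Figure D5:**
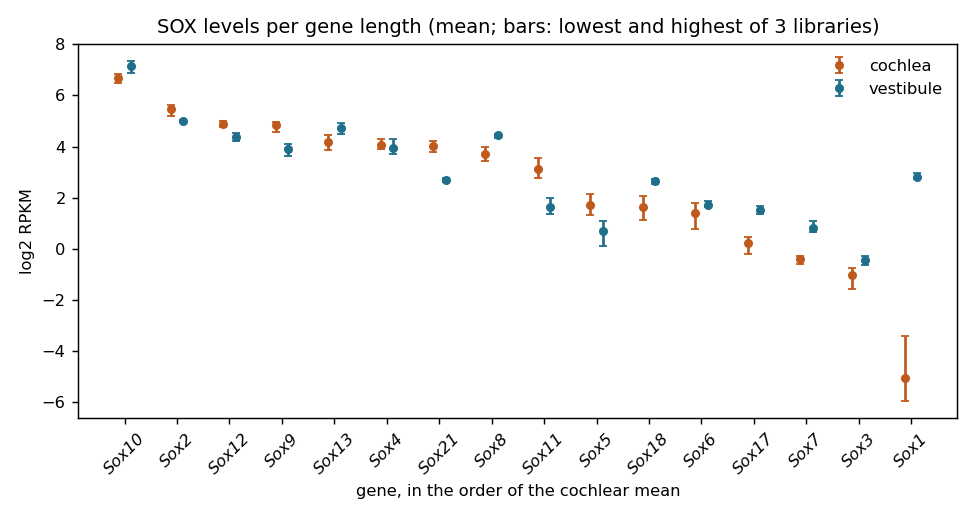
Log2 RPKM of the 16 SOX genes in the deposited matrix, in the order of the cochlear mean, with points for the mean of 3 libraries and bars for the lowest and highest library. Sox10 is highest in both tissues, and Sox1 moves from the last place in the cochlea to 2.81 in the vestibule.

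Of the 10 SOX genes outside the list, 6 were tested and 66.7% of these passed, against 27.4% of all genes. Of the 6, 1 was higher in the cochlea (Sox12, above) and 3 in the vestibule. The 3 are all of group F, the factors of blood and lymph vessel endothelium. Sox17 measured 4.21, 2.71 and 4.31 CPM in the cochlea and 10.2, 8.72 and 8.09 CPM in the vestibule (log2 fold change 1.15, SE 0.22, edgeR adjusted p = 0.00439). Sox7 measured 2.16 to 2.70 CPM against 5.18 to 7.04 CPM (1.12, SE 0.22, adjusted p = 0.00547). Sox18 measured 3.58 to 6.79 CPM against 9.38 to 10.8 CPM (0.87, SE 0.23, adjusted p = 0.0225), and its call was lost without cochlear library 2 or vestibular library 1 or 2.

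Endothelial markers were read beside group F. Of 9 tested, 7 were higher in the vestibule and 1 in the cochlea (median log2 fold change 1.09), with Kdr (3.60), Emcn (-1.80) and Pecam1 (1.77) changed most. In all 88.9% passed, against 27.4% of all genes. The list summed to 317, 245 and 324 CPM in the cochlear libraries and 705, 518 and 578 CPM in the vestibular ones. Among the cochlear libraries the second had the lowest sum and the lowest Sox17 and Sox18, while Sox7 was lowest in the third. Among the vestibular libraries the second had the lowest sum and the lowest Sox7, while Sox17 and Sox18 were lowest in the third. The part of vessel content in the group F values was not tested. With 1 library left out the count of 7 was 4 to 6, and it was 4 without cochlear library 2.

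Sox13, the third gene of group D, measured 62.2, 82.8 and 93.6 CPM in the cochlea and 129, 121 and 97.8 CPM in the vestibule (log2 fold change 0.42, SE 0.17, edgeR adjusted p = 0.108). Sox3, of group B1, was near the filter at 0.684 to 1.23 CPM against 1.34 to 1.69 CPM (0.45, SE 0.31, adjusted p = 0.319). Neither passed, although their libraries did not overlap. Sox14 had 0 counts in every library, which allows up to 0.0891 to 0.123 CPM. Sox15 and Sox30 were under the filter, at 7 to 27 and 9 to 19 counts per library, and Sry had 1 count in all.

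Markers of the remaining tissue types differed as well. Of 11 mesenchyme markers, 4 were higher in the vestibule and 2 in the cochlea (median log2 fold change 0.32). In all 54.5% passed, against 27.4% of all genes, with Lum (-2.51), Col1a1 (1.55) and Pdgfra (1.15) changed most. The list summed to 5406 to 6128 CPM in the cochlea and 8242 to 9503 CPM in the vestibule. Of these sums Col1a2, named after its values were seen, took a mean of 2212 CPM in the cochlea and 4972 CPM in the vestibule. The cochlear count of 2 was 1 with any single library left out. Of 8 dark cell and stria markers, the ion-transporting epithelium of endolymph, 6 were higher in the vestibule and 0 in the cochlea, led by Bsnd (3.83), Esrrb (3.36) and Kcne1 (2.93), and summed to 680 to 857 CPM against 1307 to 1427 CPM. Their part in the Sox1 and Sox8 values was not tested.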

How the data were processed

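RNA-seq libraries of P0 C57Bl/6J cochlear and vestibular sensory epithelium, 3 per tissue, were made from stranded mRNA preparations. After alignment to GRCm38, the authors deposited raw htseq-count counts per Ensembl gene for each library (TopHat2 2.1.0 and HTSeq 0.5.4p5, per the submitters' processing notes). A second deposited table gives log2 RPKM values, scaled by gene length and library total by the authors. The strand setting is not given in the sources used here. The 5 summary lines, 18.5% to 20.6% of listed counts, stayed out of library sizes and tests. Symbols, coordinates and sequences come from GENCODE vM21, another release than the authors counted on.

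Differential expression was computed with edgeR 4.0.16 in R 4.3.3. Standard errors are those implied by the quasi-likelihood F statistic. On simulated counts of 14723 genes for this comparison, 81 of 100 genes changed 2-fold and 100 of 100 changed 4-fold were called, with 12 unchanged genes. Every simulated gene had the same spread between libraries, which differed only in depth and in the set changes. Recovery in the real libraries can therefore differ. Alternatives were other scalings, filters and thresholds, DESeq2 1.42.0, limma-voom 3.58.1, a likelihood ratio test, a replicate block and each library left out. Pairs of libraries of a tissue differed by more than sampling noise (chi-square per degree of freedom 20.8 to 71.6).

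Members and gene lists were chosen with earlier results of these data known. Named genes were all SOX genes, analysed genes overlapping a member and the 5 closest to Sox1. Up to 3 per list, with the largest absolute fold change among those that passed, were named too. Values of 1 gene that these rules name are left out here. Slc1a3, Ednrb, Col1a2 and Col2a1 were added after their values were seen.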

Additional observations from a re-analysis of the deposited data

How the results depend on the processing

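The direction of each SOX gene's fold change held in all alternatives except for Sox6, which ran from -0.11 without cochlear library 1 (edgeR adjusted p = 0.674) to 0.32 without cochlear library 3. Of 254 alternative values of the SOX fold changes, 239 stayed on the same side of the threshold with the same sign. The alternative log2 differences in paralog ratios ran from 0.71 to 1.02 for Sox2/Sox21 and from 1.07 to 1.52 for Sox4/Sox11. For Sox5/Sox6 they ran from -1.49 to -1.10, for Sox9/Sox10 from -1.42 to -1.33 and for Sox8/Sox9 from 1.42 to 1.775. For Sox8/Sox10 they ran from 0.05 to 0.37. Leaving out 1 of 3 libraries moves a mean by less than the replicate SD in any case, so these ranges are no test. Of 374 alternative counts over the other gene lists, 29 moved by more than 1.5 times. Of 32 levels per length, 1 moved by more than the replicate spread under TMM scaling, Sox2 in the vestibule (4.94). Leaving out 1 library at a time, the genes higher in the cochlea numbered 925 to 1863 and those higher in the vestibule 1342 to 2694, against 1711 and 2325 with all libraries. The members higher in the cochlea numbered 4 to 5 and those higher in the vestibule 0 to 1, the Sox8 call being lost without cochlear library 1 or 2 or vestibular library 2. With 2 libraries in a tissue fewer samples carry the test.

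Same-numbered libraries did not deviate together (r = -0.18, -0.26 and -0.48 across genes), so the numbers were taken as names. A fit with a replicate block gave 1009 genes higher in the cochlea, 1609 in the vestibule, and 3 and 0 members, Sox2, Sox5, Sox8 and Sox18 being at adjusted p = 0.093, 0.0549, 0.0629 and 0.0551.

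Without TMM all genes had a median log2 fold change of 0.125 rather than 0.005, and 68.8% of calls were higher in the vestibule rather than 57.6% (2754 and 1251 genes); the member counts were 5 and 1. Depth limits Sox1 in the cochlea, Sox14 and Sry, which are at or under 3 counts in most or all of the libraries concerned.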
